A study of Mus musculus with 10 samples.

Results

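Immediate early genes are the genes that a cell transcribes first after a stimulus, from factors already present and without new protein synthesis. In neurons they follow synaptic activity, and in dividing cells they follow growth factors and stress, mostly through MAP kinases that act on the serum response factor with its ETS partners and on CREB. Most of their products are transcription factors, which switch on a later wave of genes, and their RNAs usually disappear quickly, so a tissue sample holds a snapshot of them.

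The 10 genes described here are Egr1, Egr2, Egr3, Fos, Fosb, Jun, Junb, Jund, Nr4a1 and Arc, out of 50559 genes counted in each library. They were taken by their symbols, as a family that was selected on the measured level of Egr1, which was raised in MYC/SMARCA4 tumors of the same data. The levels in those tumors are therefore a description and carry no p-value for any of the 10 genes, and counts of genes passing there stand only beside the share of all genes. All 10 genes were among the 29952 genes that passed the filter on low counts.

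The study asked how mouse brain tumors with MYC overexpression and loss of SMARCA4, the ATPase of the SWI/SNF chromatin remodeler, differ from normal cerebellum and from a sonic hedgehog medulloblastoma. The 10 RNA-seq libraries came from formalin-fixed, paraffin-embedded mouse tissue. The 4 MYC/SMARCA4 tumors grew in the cerebella of immunodeficient CD1nu/nu hosts, aged 112, 96, 89 and 79 days for tumors 1 to 4, that had received granule cell precursors meant to lack SMARCA4 and overexpress MYC. The injected cells were an unsorted mixture, of which only a part had lost Smarca4 and taken up the virus. The precursors were from Math1-creERT2::Smarca4fl/fl pups given tamoxifen, in which the Math1 promoter drives the recombinase in granule cell precursors, and had been transduced with a lentivirus carrying murine Myc and GFP under a CMV promoter. The 3 P7 control cerebella were whole cerebella of 7-day-old Math1-creERT2::Smarca4fl/fl mice after 0.4 mg tamoxifen on day 3, so the controls carried the induced Smarca4 deletion too, but only in a part of the granule cell lineage and not in the other cells of the cerebellum. The 3 SHH medulloblastomas (SHH MB) were from Math1-cre::Smofl/wt mice labelled 7 days old, in which a Smo allele is switched on in the same lineage. For SHH MB the labels do not say whether the libraries are from separate animals, so the spread between them may in part be technical. In the main fit, p-values and intervals rest on a spread per gene estimated over all 10 libraries together, the tumors included.

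Libraries held 5663491 to 9352109 counts. The tumors stood apart from the controls in their spread, with a median SD over all tested genes of 0.805 on the log2 CPM scale against 0.257 in P7 cerebella and 0.261 in SHH MB. Tumor 1 had 10.7% of its counts in mitochondrial and rRNA-like genes, against 3.01 to 5.11% in the other tumors and 1.70 to 2.34% in the 6 other libraries. As a check of the labels, Myc averaged 9.10 ± 1.51 log2 CPM in the tumors (SD, n = 4), 3.78 ± 0.07 in P7 cerebella (n = 3) and 5.29 ± 0.22 in SHH MB (n = 3). Smarca4 averaged 7.66 ± 0.39, 7.98 ± 0.18 and 9.08 ± 0.13 in the same order. It was lower in every tumor and P7 cerebellum, the groups with the deletion, than in every SHH MB, and tumors and P7 cerebella overlapped. Counts over the whole gene cannot single out the deleted exons. These bulk samples hold tumor and host cells together, and fewer cells of a type cannot be told apart from less RNA per cell.

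The tumors also differed in markers of mature cerebellum. Summed over 9 markers of mature granule neurons, the level was 8715 CPM in tumor 1, 3105 in tumor 2, 418 in tumor 3 and 1983 in tumor 4, against 1238 to 1576 in P7 cerebella and 490 to 600 in SHH MB. Of the 9 markers, 4 rose against P7 cerebella and 5 against SHH MB, and none was at or under 3 counts in any library. The 6 Purkinje cell markers summed to 11187, 2663, 344 and 1827 CPM in tumors 1 to 4, and the 7 myelin markers to 3997, 812, 110 and 440 CPM. P7 cerebella held 1204 to 1355 CPM of Purkinje cell markers and 953 to 1130 CPM of myelin markers, and SHH MB held 329 to 603 and 127 to 394 CPM. The markers of the granule cell precursor lineage, the labelled origin of the tumors, summed to 600 to 1894 CPM in the tumors, 1708 to 1928 in P7 cerebella and 1754 to 2104 in SHH MB. Of these 6 markers 1 passed, Barhl1, which fell in the tumors by 3.16 (SE 0.27, adjusted p = 0.000230) against P7 cerebella and 4.78 (SE 0.29, adjusted p = 6.31e-06) against SHH MB. Atoh1, with 2 counts in tumor 1, had log2 fold changes of -0.56 (adjusted p = 0.648) and -2.95 (adjusted p = 0.0521), and Zic2 had 0.11 and 0.21. Microglia and macrophage markers summed to 55.7 to 213 CPM in the tumors, against 57.0 to 92.6 in the 6 other libraries. Choroid plexus markers summed to 18.2 to 118 CPM in the tumors against 310 to 1290 in the others, and 2 of the 5 fell in both comparisons, Ttr and Kcne2. In tumor 2 Ttr, Folr1 and Kcne2 had 1, 2 and 1 counts. Otx2, a list member that the granule cell lineage also expresses, did not pass and had 50, 641, 705 and 107 counts in tumors 1 to 4, against 239 to 487 in the others, so it made up most of the sum in tumors 2 and 3. The part of these markers in the results on immediate early genes was not tested.

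In this group of 10 genes, Egr1 and Junb were higher in every MYC/SMARCA4 tumor than in all 6 control libraries, whereas Egr3, Fos, Fosb, Nr4a1 and Arc were high in some tumors and at or below control levels in others. Jun, Jund and Egr2 lay close to the controls. The gap between SHH MB and P7 cerebella was smaller, and none of the 10 genes passed the test there. The plot of log2 CPM by library shows all 100 values.

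**Figure D1:**
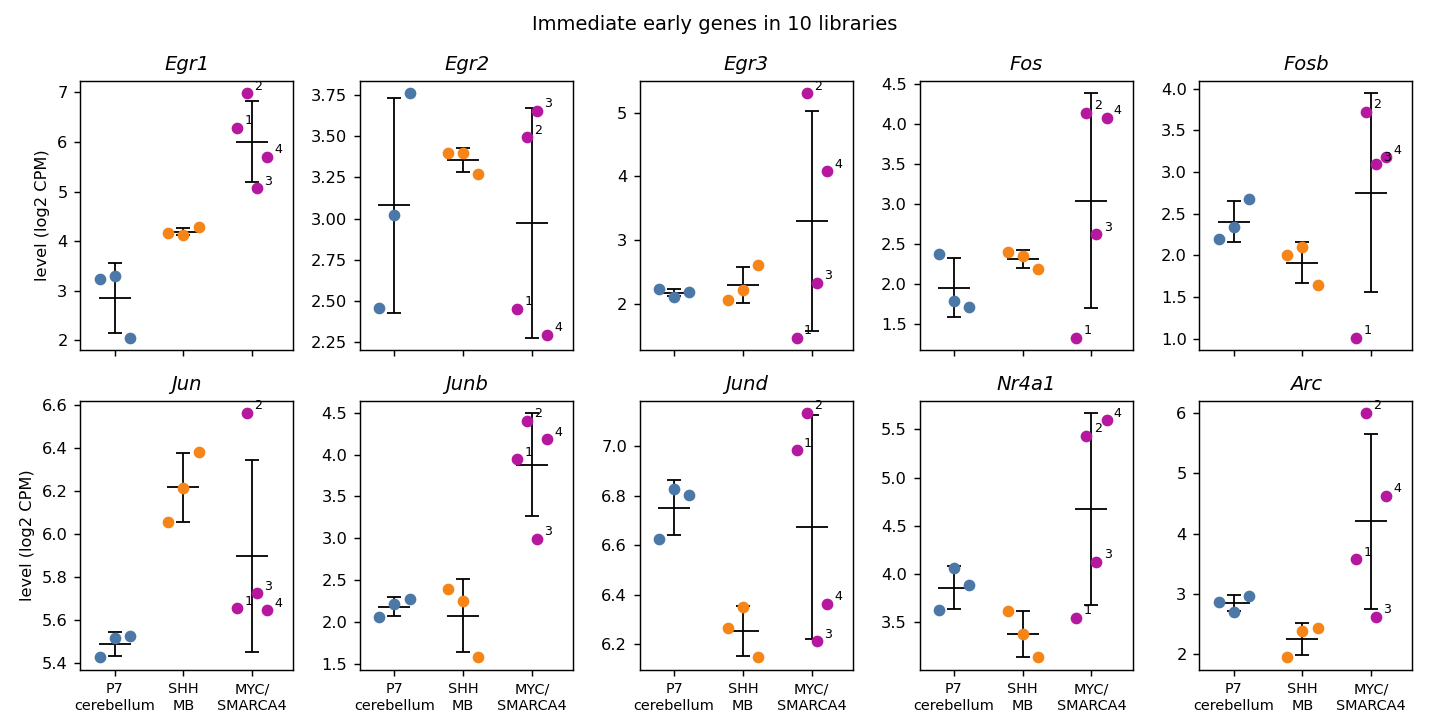
Each panel plots 1 gene, with log2 CPM on the y axis (scale differs by panel) and the 3 groups on the x axis. Points are libraries, tumors are numbered 1 to 4, and bars give the mean ± SD. All 4 tumors lie above all 6 controls for Egr1 (lowest tumor 5.06, highest control 4.28) and for Junb (2.99 and 2.39).

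The EGR genes encode zinc finger transcription factors that bind a GC-rich site. Egr1 lies on chromosome 18 at 34992876 to 34998049 (GRCm39), on the plus strand. It stood at 6.28, 6.98, 5.06 and 5.70 log2 CPM in tumors 1 to 4, 3.24, 3.29 and 2.05 in the P7 cerebella and 4.17, 4.13 and 4.28 in SHH MB. All 3 groups were apart from each other, with SHH MB between P7 cerebella and the tumors, and 1 P7 cerebellum was below the other 2. In counts, Egr1 had 237 to 702 reads in the tumors, 27 to 90 in P7 cerebella and 114 to 146 in SHH MB. The fitted log2 fold change of the tumors was 3.25 (SE 0.47) against P7 cerebella, or 9.53-fold, and 2.00 (SE 0.44) against SHH MB, or 4.00-fold. Over 19 other settings it ranged from 2.79 to 3.48 against P7 cerebella and from 1.59 to 2.12 against SHH MB.

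Egr3, which is induced by activity in neurons and in lymphocytes, did not follow Egr1. It stood at 1.46, 5.30, 2.33 and 4.08 log2 CPM in tumors 1 to 4, against 2.22, 2.11 and 2.19 in P7 cerebella and 2.06, 2.21 and 2.61 in SHH MB. Tumors 2 and 4 were above all controls, tumor 1 was below all of them and tumor 3 lay within their range. The tumor average of 3.29 ± 1.73 (SD, n = 4) thus described no single tumor, and the log2 fold change was 1.90 (SE 0.71) against P7 cerebella and 1.75 (SE 0.71) against SHH MB. Without tumor 2 these values were 0.94 and 0.79.

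Egr2, known for its role in the hindbrain and in myelinating Schwann cells, had 2.45, 3.49, 3.65 and 2.30 log2 CPM in tumors 1 to 4. The P7 cerebella had 2.46, 3.02 and 3.76 and the SHH MB 3.40, 3.40 and 3.27. The groups overlapped, and tumors 1 and 4 were below all controls. Tumor 1 was so only barely, at 5.206 CPM against 5.211 in P7 cerebellum 1. The log2 fold change of the tumors was -0.07 (SE 0.42) against P7 cerebella, with a sign that changed in 4 of 19 other settings, and -0.26 (SE 0.42) against SHH MB. Within the EGR reads of a library (Egr1, Egr2 and Egr3 together), Egr1 made up 91.0, 71.6, 66.0 and 71.0% in tumors 1 to 4, 48.9, 44.4 and 18% in P7 cerebella and 55.6, 54.1 and 55.8% in SHH MB. Every tumor was above every control in that share. The genes were chosen for Egr1 in these tumors, so nothing is read from this order.

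FOS proteins pair with JUN proteins to form the AP-1 transcription factor. Fos had 1.33, 4.13, 2.62 and 4.08 log2 CPM in tumors 1 to 4, 2.37, 1.78 and 1.71 in P7 cerebella and 2.39, 2.35 and 2.18 in SHH MB. Tumors 2, 3 and 4 were above all 6 controls and tumor 1, with 9 reads, was below them. The log2 fold change was 1.51 (SE 0.57) against P7 cerebella and 1.17 (SE 0.57) against SHH MB, and without tumor 1 it was 1.84 and 1.48. Fosb, the FOS relative with a known role in lasting responses of neurons, had 1.01, 3.73, 3.09 and 3.18 log2 CPM in tumors 1 to 4, 2.19, 2.34 and 2.68 in P7 cerebella and 2.00, 2.10 and 1.64 in SHH MB. As with Fos, tumor 1 was below all controls and the other 3 were above them. Its log2 fold change was 0.66 (SE 0.50) and 1.18 (SE 0.52), in the same order.

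The JUN genes behaved less alike than the FOS genes. Junb, a JUN protein that is induced quickly and can restrain AP-1, had 3.94, 4.40, 2.99 and 4.19 log2 CPM in tumors 1 to 4, 2.06, 2.21 and 2.28 in P7 cerebella and 2.39, 2.25 and 1.57 in SHH MB. The tumors were above both control groups without overlap. The log2 fold change was 1.85 (SE 0.39) against P7 cerebella, or 3.60-fold, and 1.92 (SE 0.39) against SHH MB, or 3.79-fold. Jun, the founding AP-1 subunit, had 5.65, 6.56, 5.72 and 5.65 log2 CPM in tumors 1 to 4, 5.43, 5.52 and 5.53 in P7 cerebella and 6.06, 6.21 and 6.38 in SHH MB. Every tumor was above every P7 cerebellum, but only tumor 2 was above the SHH MB, and the other 3 were below them. Its log2 fold change was 0.47 (SE 0.28) against P7 cerebella and -0.27 (SE 0.27) against SHH MB.

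Jund, the JUN gene that is mostly expressed without a stimulus, had 6.98, 7.13, 6.21 and 6.36 log2 CPM in tumors 1 to 4, 6.62, 6.83 and 6.80 in P7 cerebella and 6.27, 6.35 and 6.15 in SHH MB. Tumors 1 and 2 were above all controls, and tumors 3 and 4 were below the P7 cerebella. The log2 fold change was -0.03 (SE 0.27) against P7 cerebella and 0.47 (SE 0.28) against SHH MB, and the first changed sign in 5 of 19 other settings. Reads of Junb per read of Jund, a ratio within a library that needs no scaling between libraries, were 0.120, 0.149, 0.104 and 0.218 in tumors 1 to 4. The ratio was 0.0386 to 0.0410 in P7 cerebella and 0.0382 to 0.0649 in SHH MB, so every tumor was above every control.

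Nr4a1 encodes an orphan nuclear receptor that is induced by growth factors and in neurons. It had 3.55, 5.43, 4.13 and 5.59 log2 CPM in tumors 1 to 4, 3.62, 4.07 and 3.89 in P7 cerebella and 3.62, 3.38 and 3.14 in SHH MB. Tumors 2, 3 and 4 were above all controls, tumor 3 by little, and tumor 1 was within their range. The log2 fold change was 1.06 (SE 0.44) against P7 cerebella and 1.55 (SE 0.45) against SHH MB. Arc encodes a protein of the postsynapse that takes part in the removal of glutamate receptors, and is the only gene of the 10 that is not a transcription factor. It had 3.58, 6.01, 2.62 and 4.62 log2 CPM in tumors 1 to 4, 2.87, 2.70 and 2.97 in P7 cerebella and 1.95, 2.38 and 2.43 in SHH MB. Tumors 1, 2 and 4 were above all controls, whereas tumor 3 was below the P7 cerebella and above the SHH MB. Its log2 fold change was 1.93 (SE 0.63) and 2.54 (SE 0.65), and without tumor 2 it was 1.02 and 1.62.

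Against P7 cerebella, Egr1 and Junb passed the test (2 of 10 higher, 0 lower), where 3.99% of all genes tested passed as higher and 2.27% as lower. The tumors were above P7 cerebella without overlap for Egr1, Jun and Junb (3 of 10, against 10.3% of all genes), and below them for 0 (10.7%). Against SHH MB, Egr1, Junb and Arc passed (3 of 10 higher, 0 lower, against 2.43% of all genes as higher and 2.26% as lower). Egr1, Junb and Arc were also above SHH MB without overlap (3 of 10, against 7.83% of all genes), and 0 were below (8.3%). The median log2 fold change of the 10 genes was 1.29 against P7 cerebella and 1.36 against SHH MB, and that of all genes was -0.05 and 0.01. Since the genes were chosen for Egr1 in these tumors, and both comparisons share the tumors, nothing is read from these counts.

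The counts moved with single libraries, and so did the share of all genes. Without tumor 1, 6 of 10 passed against P7 cerebella (Arc, Egr1, Egr3, Fos, Junb and Nr4a1; 11.1% of all genes passed as higher) and 7 against SHH MB, Fosb being added (5.91%). Without tumor 3, 4 passed against P7 cerebella (Arc, Egr1, Egr3 and Junb; 11.8%) and 4 against SHH MB (9.57%). Without tumor 2, only Junb passed against SHH MB (1.29%). Without tumor 4 (1.8%), or without P7 cerebellum 1, 2 or 3 (0.227, 0.1 and 0.124%), only Egr1 passed against P7 cerebella. Without SHH MB 1, 2 or 3, 0 passed against SHH MB (0.174, 0.188 and 0.166%).

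**Figure D2:**
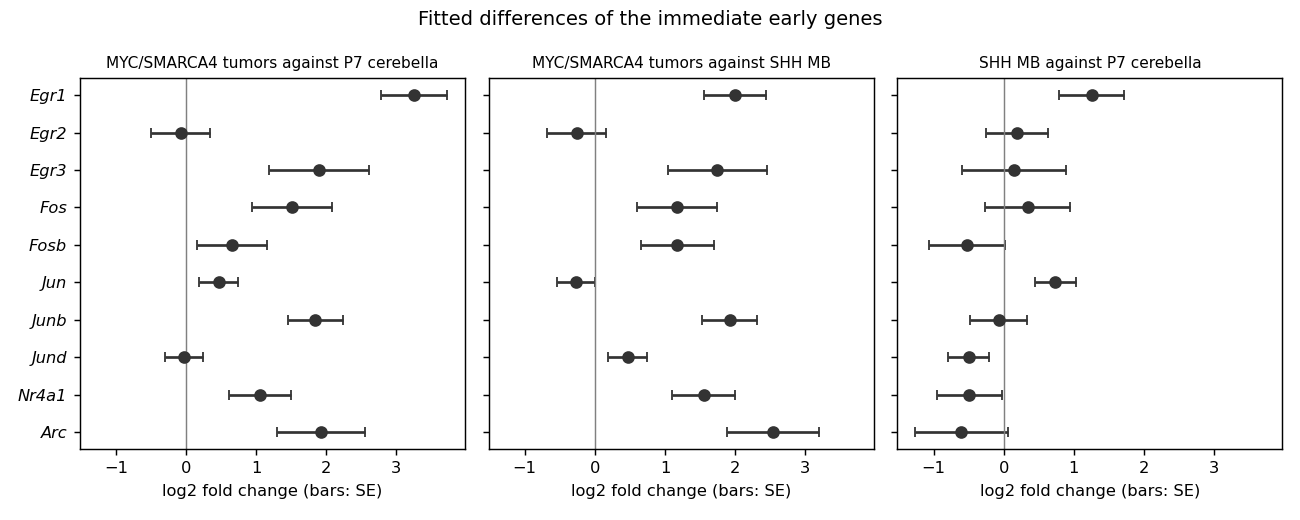
Fitted log2 fold changes (x axis) of the 10 genes (y axis) in 3 comparisons, with bars for the SE. Egr1 is farthest to the right against P7 cerebella at 3.25, Arc against SHH MB at 2.54, and between SHH MB and P7 cerebella Egr1 at 1.25 and Jun at 0.74 are the highest.

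SHH MB against P7 cerebella is the comparison that the choice of genes did not use. None of the 10 genes passed edgeR's quasi-likelihood test with Benjamini-Hochberg adjustment over all 29952 genes, where 0.177% of all genes passed as higher, 0.0467% as lower and 0.224% in all, and 0 passed in DESeq2. Before adjustment 2 genes, Egr1 and Jun, were at p under 0.05. The share of all genes at that threshold is not given, so nothing is read from this count. Egr1 was higher in SHH MB by 1.25 on the log2 scale (SE 0.46, 95% interval 0.25 to 2.25, adjusted p = 0.443), with all 3 SHH MB above all 3 P7 cerebella. Jun was higher by 0.74 (SE 0.29, 95% interval 0.10 to 1.37, adjusted p = 0.488), also without overlap. SHH MB was above P7 cerebella without overlap for these 2 genes (17.8% of all genes) and below them for 4, Fosb, Jund, Nr4a1 and Arc (19% of all genes).

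Those 4 genes had log2 fold changes of -0.52, -0.50, -0.49 and -0.61, with adjusted p-values of 0.857, 0.679, 0.841 and 0.866. The 95% interval for Jund was -1.13 to 0.13, and that for Arc was -2.04 to 0.83. Both intervals span changes of either sign, and their width rests on a spread estimated with the tumors included. Over 19 other settings the log2 fold change ran from -0.61 to -0.41 for Jund and from -0.72 to -0.43 for Arc. Fos (0.34), Egr2 (0.19), Egr3 (0.15) and Junb (-0.07) overlapped between the groups. In a fit of the 6 SHH MB and P7 libraries alone, whose spread was estimated without the tumors, Egr1, Jun and Jund passed (3 of 10, against 23.7% of all genes), with adjusted p-values of 0.000212, 4.63e-05 and 0.00345. Over all alternatives the adjusted p reached 1.00 for each of these 3 genes.

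The 4 tumors differed widely in these genes, but not much more than in genes at large, with a median SD of 0.908 log2 CPM over the 10 genes and 0.805 over all genes and 6 of the 10 above the latter. Tumor 2 had 9 of 10 genes above all 6 control libraries, all but Egr2, where 29.3% of all genes were above. Tumor 4 had 7 above (27.8% of all genes), namely Egr1, Egr3, Fos, Fosb, Junb, Nr4a1 and Arc. Tumor 3 had 5 above (25.7%), which were Egr1, Fos, Fosb, Junb and Nr4a1, and tumor 1 had 4 above (32.5%), which were Egr1, Junb, Jund and Arc. Below all controls were 4 genes in tumor 1 (38% of all genes), which were Egr3, Fos, Fosb and, only barely, Egr2. Tumor 4 had 1 gene below, Egr2 (30.3%), tumor 2 had 0 (41.2%) and tumor 3 had 0 (23.8%). Tumor 2 was the highest tumor for 8 of the 10 genes, and tumors 1 and 3 were the lowest for 4 genes each. The share of all genes with such an order is not given, so nothing is read from it.

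**Figure D3:**
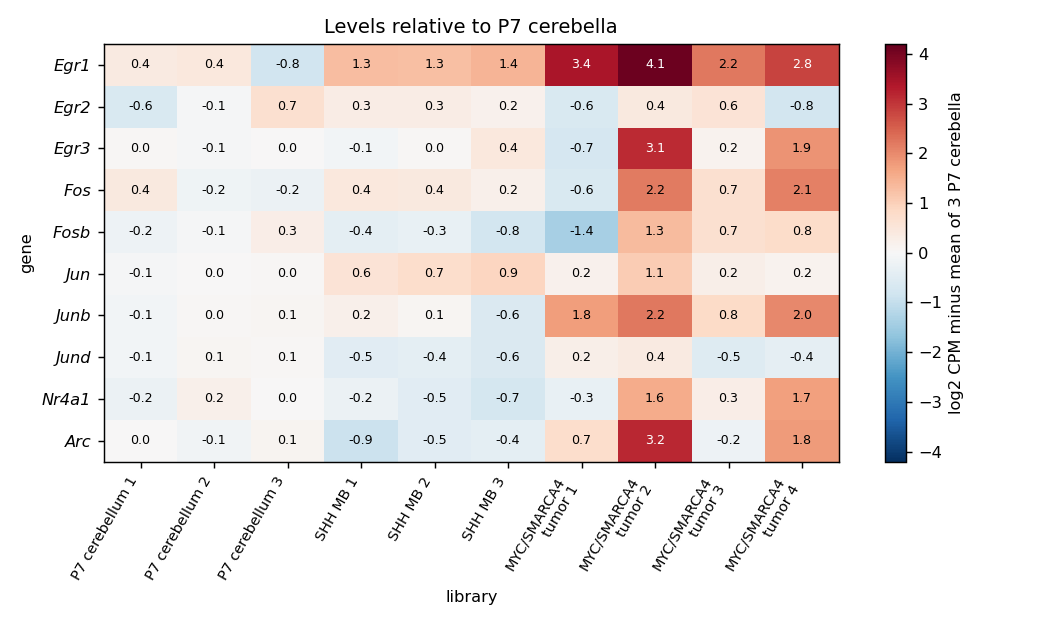
Log2 CPM of each gene (rows) in each library (columns) minus the mean of the 3 P7 cerebella, with the difference printed in each cell. Red is above and blue below the P7 mean. Tumor 2 is red for all genes, while tumor 1 is red for Egr1, Junb and Arc and blue for Egr3, Fos and Fosb.

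Between tumors 2 and 1 the distance on the log2 scale was 3.84 for Egr3, 2.81 for Fos, 2.72 for Fosb, 2.43 for Arc and 1.88 for Nr4a1, but 0.70 for Egr1, 0.46 for Junb and 0.15 for Jund. All of these genes are known to be induced in active neurons apart from Jund. The summed markers of mature granule neurons, Purkinje cells and myelin were highest in tumor 1, where Egr3, Fos and Fosb were lowest. Not all mature cell types had that order. The 7 markers of astrocytes and Bergmann glia summed to 1125, 2942, 605 and 2285 CPM in tumors 1 to 4. They summed to 2150 to 2227 CPM in P7 cerebella and 1714 to 2043 in SHH MB. A link of these sums to the immediate early genes was not tested. Tumor 1 also had the highest share of mitochondrial and rRNA-like counts and was the oldest host. Among replicates of the controls the median SD of the 10 genes was 0.180 in P7 cerebella and 0.200 in SHH MB, against 0.257 and 0.261 over all genes.

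The balance between Egr1 and Fos was also read within each library, with no scaling between libraries. It rests on Egr1, for which the genes were chosen, and is a description only. There were 34.8 reads of Egr1 per read of Fos in tumor 1 (95% interval 18.1 to 76.8, for counting error only), 7.31 in tumor 2, 5.64 in tumor 3 and 3.13 in tumor 4. The ratio was 1.88, 3 and 1.29 in P7 cerebella and 3.56, 3.56 and 4.50 in SHH MB. Tumors 1, 2 and 3 were above all controls and tumor 4 lay between P7 cerebella and SHH MB. The counting intervals of tumor 2 (5.90 to 9.15) and tumor 3 (4.05 to 8.03) overlapped that of SHH MB 3 (3.01 to 6.93).

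**Figure D4:**
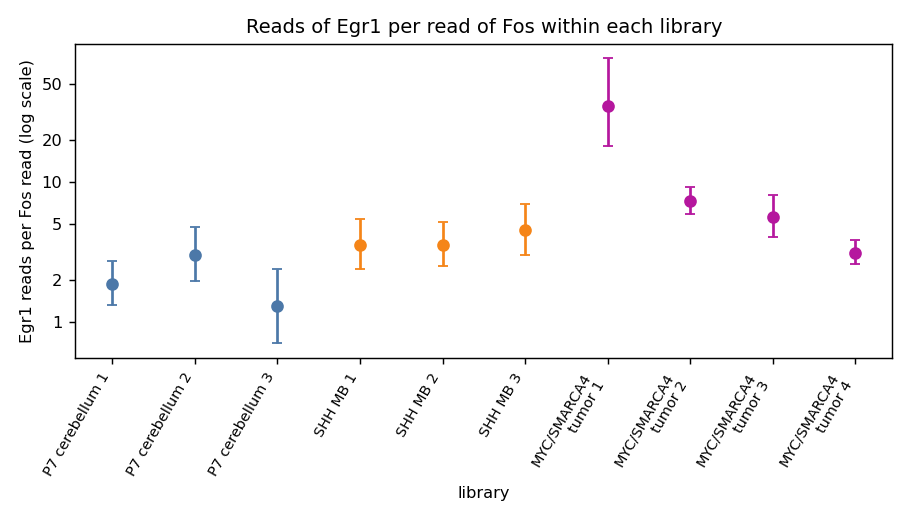
Reads of Egr1 per read of Fos (y axis, log scale) in each library (x axis), with 95% intervals for counting error. Tumor 1 stands at 34.8 and the other tumors at 3.13 to 7.31, against 1.29 to 3 in P7 cerebella and 3.56 to 4.50 in SHH MB.

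Per length of merged exons, Jund was the highest of the 10 genes in each group, at 63.3 CPM per kb in the tumors, 64.6 in P7 cerebella and 45.7 in SHH MB. Jun had rank 2 in each group, at 19.3, 14.0 and 23.3 CPM per kb. Egr1 had rank 3 in the tumors at 16.1 ± 8.99 CPM per kb (SD, n = 4) and rank 3 in SHH MB at 4.01 ± 0.23 (n = 3), but rank 6 in P7 cerebella at 1.67 ± 0.71 (n = 3). In P7 cerebella Egr2, Arc, Junb, Egr1, Fos and Nr4a1 followed Jun in that order, from 2.58 to 1.32 CPM per kb, and the libraries of neighbours in the order overlapped. In the tumors the order after Egr1 was Arc, Junb, Fos, Egr3, Nr4a1, Egr2 and Fosb, and all neighbours below Jund overlapped. In SHH MB the order was Egr1, Egr2, Fos, Junb, Arc, Egr3, Nr4a1 and Fosb, and Egr1 was apart from Egr2, Egr2 from Fos and Nr4a1 from Fosb. Fosb was the lowest in each group, at 1.27, 0.813 and 0.565 CPM per kb.

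The deposited counts of 4 of the genes may hold reads of a neighbour on the other strand, because the strand setting of the counting was not given in the sources used here. In the GENCODE annotation of GRCm39, exons of Jun overlap the span of the antisense gene Junos. Exons of Junb overlap the spans of Prdx2 and Gm65321, those of Jund the span of Gm11175 and those of Nr4a1 the span of Gm63180. Whether they meet exons of these neighbours was not checked. Egr1, Egr3, Fos, Fosb and Arc overlap no other gene. Fos lies on chromosome 12 at 85520658 to 85524047, Junb on chromosome 8 at 85701113 to 85705359 and Arc on chromosome 15 at 74540932 to 74544419.

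Promoters in RefSeq on GRCm38.p6 were found for 7 of the 10 genes, Egr2, Fos, Fosb, Jun, Junb, Jund and Nr4a1, as windows of 250 bases before a transcript start. They were searched on both strands for the CArG box of serum response factor, the CREB site TGACGTCA, the AP-1 site TGANTCA, the EGR site GCGNGGGCG and the E-box CACGTG that MYC binds. Of all 32851 promoter windows of this length, 1.47, 1.55, 6.75, 4.7 and 6.02% held them, in that order. Of the windows with a hit, 3 are shown because they carry the serum response site and the EGR sites, with the site in capitals:

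Egr2 (chr10:67537619-67537868, plus strand, CArG box): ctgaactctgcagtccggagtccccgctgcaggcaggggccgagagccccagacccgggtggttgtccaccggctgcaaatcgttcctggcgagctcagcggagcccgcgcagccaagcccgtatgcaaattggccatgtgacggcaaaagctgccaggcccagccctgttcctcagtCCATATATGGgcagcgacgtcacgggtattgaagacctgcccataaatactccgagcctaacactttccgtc
Fosb (chr7:19310046-19310295, minus strand, EGR site): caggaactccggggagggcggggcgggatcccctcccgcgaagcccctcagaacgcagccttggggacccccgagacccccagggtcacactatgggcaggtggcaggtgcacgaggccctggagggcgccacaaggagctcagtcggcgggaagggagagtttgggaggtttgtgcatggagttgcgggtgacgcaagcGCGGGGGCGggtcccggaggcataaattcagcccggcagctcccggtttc
Nr4a1 (chr15:101266596-101266845, plus strand, EGR site on the other strand): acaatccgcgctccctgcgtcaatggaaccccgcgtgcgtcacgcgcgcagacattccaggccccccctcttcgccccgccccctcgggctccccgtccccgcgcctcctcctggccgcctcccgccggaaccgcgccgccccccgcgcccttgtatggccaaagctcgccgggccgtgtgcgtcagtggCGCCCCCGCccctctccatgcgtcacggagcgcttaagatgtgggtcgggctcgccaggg

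Counted from the transcript start, the Egr2 site lies at -72 to -63, the Fosb site at -50 to -42 and the Nr4a1 site at -60 to -52. Egr2 has 5 windows, of which 3 overlap and hold this CArG box, another holds the CArG box CCTTTTTTGG and 1 holds the E-box. No full match to the searched letters was found in the windows of Fos, Jun, Junb and Jund. Full matches to the CREB and AP-1 sites were in none of the windows. Near matches were not counted, such as tgacatca in the Jun window and tgacgta in the Fos window. Sequence outside the windows was not searched. A window without a match therefore does not show that the gene lacks such a site. The matches found are descriptions of the reference sequence, and the data hold no binding at these places. Egr2, with a CArG box in these windows, overlapped between tumors and controls, but a link of the sites to the levels was not tested. Egr1, Egr3 and Arc had no window to search.

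The wider response was read from 92 further genes in 6 lists, of which 91 could be tested. Fosl1 had 0 to 12 counts and was left out by the filter. Against P7 cerebella 10 of 91 rose and 1 fell (12.1% in all, against 6.25% of all genes), and against SHH MB 10 rose and 5 fell (16.5%, against 4.68%). These counts moved when a library was left out, and so did the share of all genes. Without P7 cerebellum 1, 2 or 3, 0 to 1 of the genes passed against P7 cerebella (0.697, 0.469 and 0.628% of all genes), while 22 passed without tumor 1 (16.1% of all genes) and 30 without tumor 3 (34.6%). Without SHH MB 1, 2 or 3, 4 to 5 passed against SHH MB (1.14, 1.09 and 0.955%), and 35 passed without tumor 3 (23.4%).

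**Figure D5:**
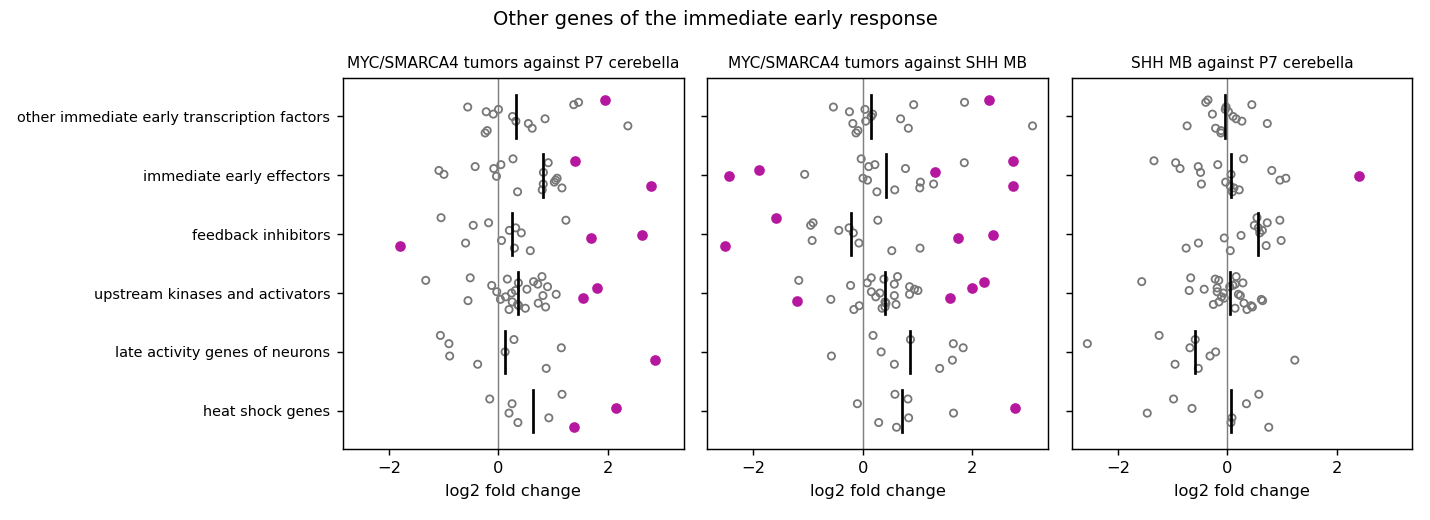
Log2 fold changes (x axis) of the genes of 6 lists (y axis) in 3 comparisons. Filled points passed the test, open points did not, and the black line is the median of a list, which lies between -0.59 and 0.87.

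Feedback inhibitors held the genes that tie most directly to Egr1. Nab1 and Nab2 encode corepressors that bind EGR proteins, and both rose in the tumors. Nab2 had 229, 221, 74 and 150 counts in tumors 1 to 4, 24 to 57 in P7 cerebella and 35 to 50 in SHH MB. Its log2 fold change was 2.62 (SE 0.53, adjusted p = 0.0171) against P7 cerebella and 2.37 (SE 0.53, adjusted p = 0.0242) against SHH MB. Nab1 rose by 1.69 (SE 0.37, adjusted p = 0.0232) and 1.74 (SE 0.37, adjusted p = 0.0206). Dusp4, a phosphatase that switches off MAP kinases, fell by 1.80 (SE 0.30, adjusted p = 0.00842) and 2.51 (SE 0.31, adjusted p = 0.000711), with 21 to 52 counts in the tumors, 135 to 191 in P7 cerebella and 165 to 268 in SHH MB. Zfp36l1, which promotes decay of AU-rich mRNAs, fell against SHH MB by 1.59 (SE 0.38, adjusted p = 0.0316). Of the 14 feedback inhibitors, 2 rose and 1 fell against P7 cerebella, 2 rose and 2 fell against SHH MB, and the list medians were 0.25 and -0.21.

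Of 15 tested genes among the other immediate early transcription factors, 1 rose in each tumor comparison, and it was Per1, a clock gene that is also induced by light and activity. Per1 rose by 1.95 (SE 0.37, adjusted p = 0.0134) against P7 cerebella and 2.31 (SE 0.38, adjusted p = 0.00497) against SHH MB. Egr4, the remaining EGR gene, had 10, 218, 54 and 35 counts in tumors 1 to 4, 18 to 26 in P7 cerebella and 7 to 15 in SHH MB. It was highest in tumor 2, like Egr3, and did not pass. The list medians were 0.32 against P7 cerebella and 0.15 against SHH MB. Npas4 was the lowest gene of the list, at -0.56 and -0.54, and did not pass. The Nr4a1 relatives Nr4a2 and Nr4a3 were chosen for display after their values were seen. Nr4a2 had 50, 232, 121 and 456 counts in tumors 1 to 4, against 81 to 132 in the other libraries. Nr4a3 had 36, 328, 87 and 397 counts, against 39 to 125, and both were higher in tumors 2 and 4 than in tumors 1 and 3, in counts and in log2 CPM.

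Among 18 immediate early effectors, 2 rose against P7 cerebella, and 3 rose and 2 fell against SHH MB. Ccn2, a matrix protein gene induced by growth factors and mechanical load, rose by 2.79 (SE 0.67, adjusted p = 0.0320) and 2.74 (SE 0.67, adjusted p = 0.0372). Sik1, a kinase gene induced by cAMP, rose by 1.41 (SE 0.32, adjusted p = 0.0244) and 2.75 (SE 0.34, adjusted p = 0.000760). Plk2, a polo-like kinase of activated neurons, rose by 1.31 against SHH MB (SE 0.32, adjusted p = 0.0378). Plk3 fell there by 1.90 (SE 0.39, adjusted p = 0.0177) and Ier5 by 2.45 (SE 0.38, adjusted p = 0.00323). Ier5, a cofactor of the heat shock response, was the only gene of the 91 that passed between SHH MB and P7 cerebella, where it rose by 2.41 (SE 0.41, adjusted p = 0.0381; 1.1% of the 91, against 0.224% of all genes). It had 928 to 1443 counts in SHH MB, 232 to 301 in P7 cerebella and 77 to 314 in the tumors, and it no longer passed without any 1 of the 6 SHH MB and P7 libraries.

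Of the 27 upstream kinases and activators, 2 rose against P7 cerebella, and 3 rose and 1 fell against SHH MB. Map2k1, the MAP kinase kinase MEK1, rose by 1.54 (SE 0.33, adjusted p = 0.0206) and 1.59 (SE 0.33, adjusted p = 0.0178). Mef2c, a transcription factor that also marks neurons, rose by 1.80 (SE 0.33, adjusted p = 0.0114) and 1.99 (SE 0.33, adjusted p = 0.00552). Rps6ka1, a ribosomal S6 kinase, rose against SHH MB by 2.20 (SE 0.55, adjusted p = 0.0397), and Elk3, an ETS partner of serum response factor, fell by 1.20 (SE 0.30, adjusted p = 0.0372). Of 9 late activity genes of neurons, 1 rose against P7 cerebella, Nptx1, a synaptic pentraxin, by 2.87 (SE 0.68, adjusted p = 0.0293). Against SHH MB these 9 genes ranged from -0.57 for Nptx2 to 1.83 for Pcsk1. Of 8 heat shock genes, 2 rose against P7 cerebella, Hspa1b, an inducible HSP70, by 2.14 (SE 0.53, adjusted p = 0.0351) and Bag3, its cochaperone, by 1.37 (SE 0.30, adjusted p = 0.0215), and Hspa1b rose by 2.79 (SE 0.56, adjusted p = 0.0157) against SHH MB.

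By the root mean square difference of centred log2 CPM over the 10 libraries, the 5 genes most like Egr1 were Gm23201, Snord14e, Snord14c, Snora17 and Vaultrc5, at 0.388 to 0.415. These are small RNA genes with at most 93 counts in any library. Of the other 9 immediate early genes, Junb was nearest to Egr1, at 0.824 and rank 213 of 29951 genes. The genes most like Fos were Zfp568, Ajuba, Prdx1, Cdv3 and Hsph1, at 0.235 to 0.313. Egr3 (0.434, rank 92), Nr4a1 (0.477, rank 223) and Fosb (0.548, rank 636) were the nearest immediate early genes to Fos, and Egr1 was far from it (1.19, rank 15355). These distances share the libraries and their depth and are a description only.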

How the data were processed

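RNA from formalin-fixed, paraffin-embedded tissue was depleted of ribosomal RNA and sequenced as total RNA. Per the methods, the authors trimmed reads with Trimmomatic 0.38.1, aligned them to GRCm39 with STAR 2.7.8a and counted them with featureCounts 2.0.1; annotation and strand setting were not given in the sources used here. The deposited counts are whole reads per gene and the deposited log2-like VST values come from DESeq2. Here counts were tested with edgeR 4.0.16 (R 4.3.3; quasi-likelihood test, TMM, filterByExpr, all 10 libraries in 1 fit, 29952 genes, Benjamini-Hochberg over all), and a gene passed at an adjusted p of at most 0.05. Log2 CPM used a prior count of 2. Groups came from the sample labels. Fold changes are log2.

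The members and lists were chosen with earlier results of these data known. Named pathway genes passed in a comparison, at most 4 per list and direction, or were extremes where none passed. Egr4, Npas4, Nr4a2 and Nr4a3 were named besides. In the marker lists described here, genes at or under 3 counts were named too, as were the 5 genes most like Egr1 and Fos. Tagln, in the list of pericytes and smooth muscle, which is not described here, had 0 to 5 counts. Alternatives were RLE factors, library totals, no mitochondrial or rRNA genes, DESeq2 1.42.0, limma 3.58.1 on VST, no filter, 2-group fits, robust estimation, a replicate block, each library left out, other thresholds and a prior count of 0.5. The models were tested on simulated data.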

Additional observations from a re-analysis of the deposited data

Results flagged for a closer look

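Among 27 sets of values over the 4 MYC/SMARCA4 tumors (10 genes and 17 list sums), 1 stood out. Jun was higher in tumor 2 (6.56 log2 CPM) than in the other tumors (5.65 to 5.72), a gap of 0.913 of the whole range of the tumors. Chance alone marks such a gap in about 1 of 20 sets.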

How the results depend on the processing

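Numbers of genes passing depended on the setting, in the order of tumors against P7 cerebella, tumors against SHH MB and SHH MB against P7 cerebella where 3 values are given; causes were not tested. Of the 10 immediate early genes 2, 3 and 0 passed. Against P7 cerebella 5 passed with DESeq2 (10.4% of all genes as higher), 1 with library totals (1.02%) and 1 with only the 2 groups (0.206%). At an adjusted p of at most 0.01 and a size of 1.5 or 2.5 on the log2 scale, 1 passed. Against SHH MB 0 passed with only the 2 groups (0.337% of all genes as higher) and 0 at both stricter thresholds. The share of all genes at the stricter thresholds is not given, so nothing is read from those counts. Between SHH MB and P7 cerebella 3 passed with only the 2 groups (Egr1 1.26, Jun 0.76, Jund -0.48), where 23.7% of all genes did. Leaving out 1 library gave 1 to 6, 0 to 7 and 0. The share of all genes passing in either direction then ran from 0.469 to 34.6%, 0.955 to 23.4% and 0 to 3.17%. Of the 91 pathway genes 11, 15 and 1 passed, with DESeq2 23, 24 and 3 (14.8, 12 and 2.55% of all genes), with only the 2 groups 1, 5 and 34 (0.813, 1.48 and 23.7% of all genes), at that log2 size of 1.5 1, 5 and 0, at that of 2.5 0, 2 and 0, and leaving out 1 library 0 to 30, 4 to 35 and 0 to 4. The replicate numbers of the labels did not pair the samples (r from -0.27 to 0.16 over 9 pairs, 1 over 0.1). With the replicate block 1, 1 and 0 of the 10 genes passed, against 1.24, 2.11 and 0.0634% of all genes in either direction. Of the pathway genes, 3 passed there against P7 cerebella and 0 between SHH MB and P7 cerebella. Leaving out 1 library reversed 3 small differences between SHH MB and P7 cerebella, for Egr2 without P7 cerebellum 1 and for Egr3 and Junb without SHH MB 3. Their log2 fold changes then ranged from -0.073 to 0.62 for Egr2, -0.0054 to 0.29 for Egr3 and -0.21 to 0.18 for Junb. Library totals moved the median of all genes to -0.42 against P7 cerebella and -0.22 against SHH MB, with 307 genes higher and 1172 lower, and 431 and 908 (1194 and 679, and 727 and 676, in the reported fit).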
